A study of Mus musculus with 24 samples.

Results

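The Runx transcription factor genes Runx1, Runx2 and Runx3, the gene of their shared partner Cbfb and the antisense RNA gene Runx2os1 were examined in Ly6Chi and Ly6Clo monocytes of mouse peripheral blood. These 5 genes were taken by name from the 53715 genes of the deposited table, and 1 row was found for each. They were chosen by their normalized counts over the 6 groups, which had been seen beforehand. Their levels and differences are therefore given as a description. They were part of the fit over all genes, and whether a member met its call rule is stated as such, without a p-value and not as evidence. All 5 were among the 11230 genes that reached a normalized count of 50 in at least 1 library, but Runx2os1 reached it only in the libraries of wt Ly6Clo cells after imiquimod (IMQ), the group in which it is high.

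The study asked how Notch2 and TLR7 signaling act on the conversion of Ly6Chi into Ly6Clo monocytes. Mice were 8 to 10 weeks old on a C57BL/6 background, and all carried a Cx3cr1 GFP reporter allele. N2ΔMy mice (B6.129-Lyz2tm1(cre)IfoNotch2tm1FradCx3cr1tm1Litt) carried 2 loxP-flanked Notch2 alleles, with Cre driven by Lyz2, which is active in myeloid cells, removing part of Notch2. Littermate controls are called wt. IMQ mice received 50 mg of Aldara cream with 5% IMQ, a TLR7 agonist, per day on the skin and Sham mice a control cream, with the sort at day 5. There were 4 libraries in each of 6 groups, namely Ly6Chi cells of wt and N2ΔMy mice after Sham treatment, Ly6Chi cells of both genotypes after IMQ, and Ly6Clo cells of both genotypes after IMQ. The methods call the controls untreated in one place, and no Sham Ly6Clo group was analysed here.

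Runx proteins bind DNA through a conserved Runt domain, and CBFβ, the product of Cbfb, binds no DNA itself but strengthens their binding. Runx1 is required for the emergence of blood stem cells, Runx2 is best known as the regulator of bone formation and is also expressed in plasmacytoid dendritic cells, and Runx3 acts in T cells and NK cells. Runx proteins can activate or repress their targets, depending on the cofactors they meet. Runx2os1 is a non-coding RNA gene on the strand opposite to Runx2.

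The sequences that show how these loci are built were taken from RefSeq promoter windows of GRCm38.p6, which reach from 250 bases before to 50 after a gene's start. Windows were found for 4 of the 5 genes, 6 windows in all, and none for Runx2os1. In the window of the more upstream start of Runx1 and of Runx3 and in that of Runx2, an 18-base stretch was identical. It is shown in capitals because the Runx motif ACCACA occurs in it 2 times. Among 32851 windows only 4 hold this stretch, those of the 3 Runx genes and that of Gm16225. The stretch begins at base 27 from the start of Runx1, at base 22 from that of Runx2 and at base -136 from that of Runx3.
Runx1, chr16:92826025-92826054, minus strand: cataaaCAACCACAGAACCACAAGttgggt
Runx2, chr17:44814583-44814612, minus strand: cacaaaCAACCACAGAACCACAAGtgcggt
Runx3, chr4:135120503-135120532, plus strand: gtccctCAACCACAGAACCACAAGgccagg

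The 250 bases before the Runx2 start are given because Runx2 is the family member that differed most between subsets and genotypes. Matches to the Runx motif (TGTGGT, or ACCACA on the other strand) and to the motif of RBPJ, the DNA-binding partner of Notch (TGGGAA, or TTCCCA), were searched on both strands and are in capitals.
Runx2, chr17:44814628-44814877, minus strand: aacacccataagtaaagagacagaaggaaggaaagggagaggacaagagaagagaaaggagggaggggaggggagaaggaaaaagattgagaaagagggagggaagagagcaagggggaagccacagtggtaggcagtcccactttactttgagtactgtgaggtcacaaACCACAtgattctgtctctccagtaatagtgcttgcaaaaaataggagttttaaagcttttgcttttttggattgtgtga
The whole Runx2 window held 3 Runx matches, at bases -80, 24 and 32 from the start, the latter 2 within the shared stretch, and no RBPJ match. It was the only Runx2 window found, so any other start of the gene was not searched. The Runx1 window with the stretch held 2 Runx matches, and the Runx3 window held 2 Runx matches and 1 RBPJ match. Neither motif occurred in the Cbfb window or in the more downstream windows of Runx1 and Runx3. Of all windows, 16.8% held the Runx motif and 25.6% the RBPJ motif, so a match is a description of the letters only.

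Runx2os1 lies at chr17:44735845-44737612 on the plus strand and has 2 exons. All 519 bases of exon 1 lie within Runx2 exons on the other strand, while the 273 bases of exon 2 share none with them. The library kit keeps the strand, but whether counting used it is not given in the sources used here, and without it reads of exon 1 and of Runx2 could not be told apart. Exon 2 lies within the span of Runx2, so without the strand reads of unspliced Runx2 RNA could fall in it too. Exon 2, the part of Runx2os1 outside Runx2 exons, is given from the GENCODE M21 transcript of the same build, with the same motifs in capitals.
Runx2os1 exon 2, chr17:44737340-44737612, plus strand: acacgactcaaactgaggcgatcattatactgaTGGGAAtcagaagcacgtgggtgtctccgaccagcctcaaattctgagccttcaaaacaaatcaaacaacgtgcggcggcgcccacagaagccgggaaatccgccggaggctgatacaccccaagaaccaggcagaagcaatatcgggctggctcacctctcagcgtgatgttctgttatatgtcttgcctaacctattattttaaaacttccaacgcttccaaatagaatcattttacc

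Depth, inferred from the rounding of the values, lay between 9521379 and 19759572 reads per library. Library labels formed 2 series, with replicates 1 and 2 of every group in series 1 and replicates 3 and 4 in series 2, and series 2 was on average the shallower. Values within each series are given beside the main differences. Notch2, the targeted gene, was lower in N2ΔMy than in wt cells in all 3 settings and groups did not overlap. In Ly6Clo cells after IMQ it was 20005, 16624, 16037 and 18399 in wt and 10987, 9368, 11137 and 11518 in N2ΔMy libraries (log2 fold change -0.72 ± 0.11 SE, limma with Benjamini-Hochberg adjustment, adjusted p = 0.0031). The gene-level value keeps reads of exons outside the deleted part. T and NK cell markers, of which Cd3e was 0 in every library, summed to at most 73, and B cell markers to at most 25, in any library.

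Runx2 had the widest range of normalized counts among the members, while on the log2 scale Runx2os1 did. Its normalized counts in wt Ly6Clo cells after IMQ were 2386, 2011, 2040 and 1989 (2107 ± 188 SD, n = 4). In N2ΔMy Ly6Clo cells they were 1084, 996, 1119 and 1190 (1097 ± 80.6 SD, n = 4). No N2ΔMy library reached the lowest wt library, and the N2ΔMy mean was 52.1% of the wt mean. The log2 fold change was -0.94 ± 0.10 SE, and it was -1.08 in library series 1 and -0.80 in series 2. Runx2 and Runx2os1 met the call rule in this comparison (limma, Benjamini-Hochberg adjusted p not above 0.05, log2 fold change not below 0.6 in size), as did 4.78% of all genes tested. The members were chosen by these values, and Runx2os1 was tested only because of its level in the wt group, so nothing is read from the 2 of 5. These are bulk values, so fewer cells of a type and less RNA per cell cannot be told apart.

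In Ly6Chi cells Runx2 was low in every group. After IMQ it was 617, 717, 717 and 674 in wt and 421, 474, 315 and 349 in N2ΔMy libraries. These groups did not overlap either, and the N2ΔMy mean was 57.2% of the wt mean (log2 fold change -0.82 ± 0.14 SE). After Sham treatment it was 684, 598, 385 and 534 in wt and 419, 326, 343 and 277 in N2ΔMy libraries, so 1 N2ΔMy library lay above the lowest wt library (log2 fold change -0.67 ± 0.19 SE). No member passed the call rule in either Ly6Chi comparison, where the background was 0.0267% after IMQ, 3 genes, and 0.0178% after Sham, 2 genes. Unadjusted p-values under 0.05 were found for 679 and 585 genes. With the replicate number as a block, Runx2 passed after IMQ, as 1 of 54 genes, and not after Sham, where 3 genes passed. Within library series 1 and 2 the log2 fold change was -0.57 and -1.07 after IMQ and -0.79 and -0.56 after Sham.

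The difference of N2ΔMy from wt cells was compared between subsets by the interaction of genotype and subset under IMQ, which was -0.12 ± 0.17 SE on the log2 scale for Runx2. The interaction of genotype and treatment in Ly6Chi cells was -0.15 ± 0.24 SE. Both interactions were smaller than their SE, which does not show the differences to be equal, and Ly6Clo cells after IMQ were not compared with Ly6Chi cells after Sham. Of all genes tested, 1.03% passed the first interaction and 0% the second, in which limma gave 177 genes an unadjusted p under 0.05. No member passed either.

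Between the subsets Runx2 was higher in Ly6Clo than in Ly6Chi cells after IMQ in both genotypes. The wt mean of Ly6Clo cells was 309% of that of Ly6Chi cells (log2 fold change 1.63 ± 0.10 SE) and the N2ΔMy mean 282% (1.51 ± 0.14 SE). All Ly6Clo libraries lay above all Ly6Chi libraries of the same genotype, and N2ΔMy Ly6Clo libraries lay above every wt Ly6Chi library. By series, the wt value was 1.72 and 1.53 and the N2ΔMy value 1.22 and 1.80. The call rule was met by 3 of 5 members in wt cells, where 24.6% of all genes met it, and by 2 of 5 in N2ΔMy cells, where 17.4% did. Here too the choice of members used these values, and Runx2os1, 1 of the 3 in wt cells, passed the filter only through the wt Ly6Clo group, so these counts are a description.

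IMQ against Sham moved Runx2 less. The log2 fold change in Ly6Chi cells was 0.34 ± 0.16 SE in wt and 0.19 ± 0.17 SE in N2ΔMy cells, with overlapping libraries in both genotypes. In wt cells it was 0.06 in series 1 and 0.62 in series 2. No member passed the call rule in these comparisons, with backgrounds of 9.49% in wt and 8.7% in N2ΔMy cells, 1066 and 977 genes.

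**Figure D1:**
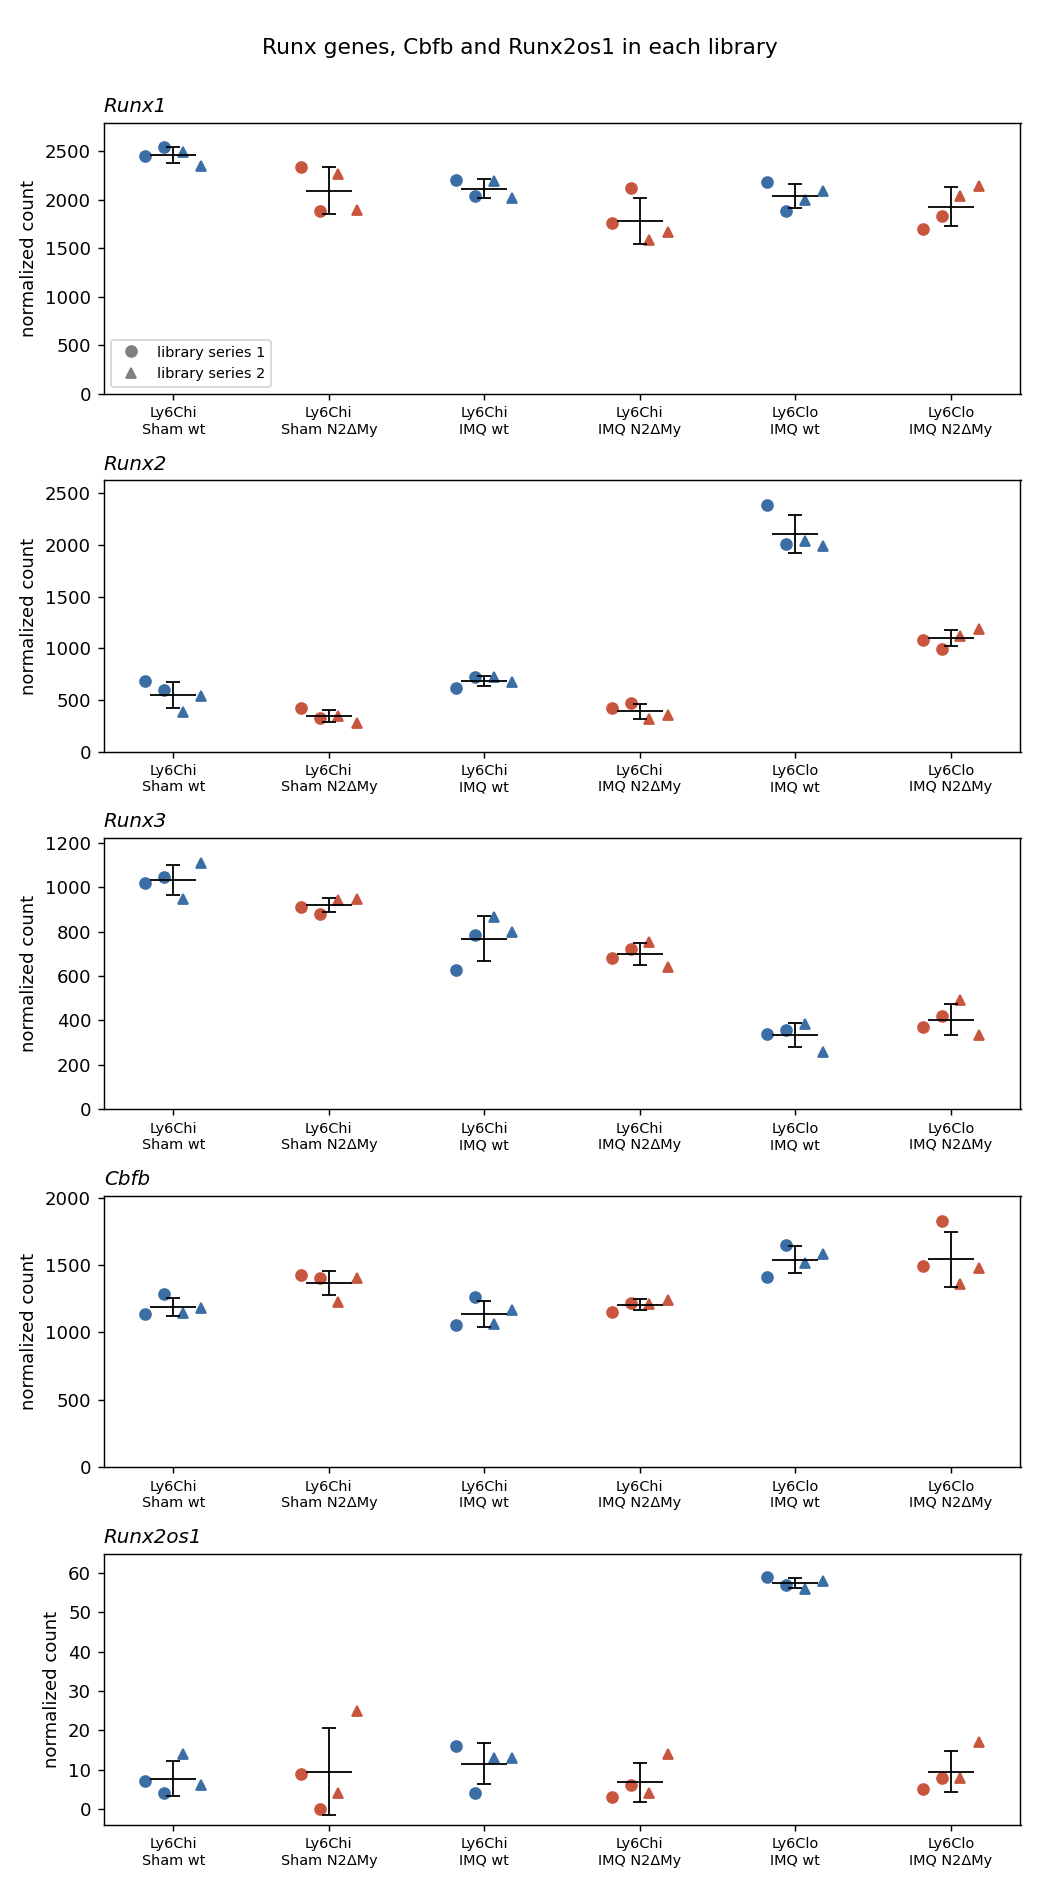
Normalized counts (vertical axis, linear) of the 5 genes in the 6 groups (horizontal axis), wt in blue and N2ΔMy in red. Symbols are libraries (circles series 1, triangles series 2), bars are the mean and SD of 4. Runx2 and Runx2os1 stand highest in wt Ly6Clo cells, at 1989 to 2386 and at 56 to 59.

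Runx2os1, the antisense gene, was seen at few reads. In wt Ly6Clo cells after IMQ its normalized counts were 59, 57, 56 and 58 (57.5 ± 1.29 SD, n = 4), which correspond to 42 to 64 inferred reads per library. That SD is smaller than counting error at this level, so it is not a measure of precision. In N2ΔMy Ly6Clo cells they were 5, 8, 8 and 17 (9.5 ± 5.2 SD, n = 4), or 6 to 18 inferred reads. The groups did not overlap, and the N2ΔMy mean was 16.5% of the wt mean (log2 fold change -2.60 ± 0.39 SE, -3.00 in series 1 and -2.19 in series 2). With a pseudocount of 10 in place of 1 this log2 fold change was -1.83.

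In all 4 Ly6Chi groups Runx2os1 lay between 0 and 25, and these groups and the N2ΔMy Ly6Clo group overlapped with each other. The 0 was in an N2ΔMy Sham library, where 3 reads would have given a value of 2.19. Against wt Ly6Chi cells after IMQ, at 16, 4, 13 and 13, wt Ly6Clo cells were higher by 2.36 ± 0.42 SE on the log2 scale, and by 1.69 with a pseudocount of 10. Against N2ΔMy Ly6Chi cells after IMQ, at 3, 6, 4 and 14, N2ΔMy Ly6Clo cells differed by 0.51 ± 0.69 SE, so no difference was detectable at this depth. The interaction of genotype and subset was -1.85 ± 0.73 SE and did not pass the call rule. In Ly6Chi cells after Sham the means were 7.75 in wt and 9.5 in N2ΔMy cells, while the log2 fold change was -0.42 ± 0.88 SE, of the other sign. The means on both scales also had opposite signs for IMQ against Sham in N2ΔMy Ly6Chi cells, with 6.75 against 9.5 and a log2 fold change of 0.17 ± 0.93 SE.

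Set against Runx2 in the same library, which removes the scaling, Runx2os1 was 2.74 ± 0.193 (SD, n = 4) per 100 of Runx2 in wt Ly6Clo cells and 0.852 ± 0.411 (SD, n = 4) in N2ΔMy Ly6Clo cells. In the 4 Ly6Chi groups the mean lay between 1.61 and 3.08 per 100. The highest, of N2ΔMy cells after Sham, was 3.08 ± 4.06 (SD, n = 4) and rested on replicate 4 at 9.03, without which it was 1.1. Leaving out replicate 4 of the N2ΔMy IMQ group took its mean from 1.81 to 1.08, and leaving out replicate 3 of the wt Sham group took its mean from 1.61 to 0.939. On the log2 scale the difference between the Ly6Clo groups was -1.66, so Runx2os1 was lower relative to Runx2 in N2ΔMy cells. With a pseudocount of 10 in place of 1 this difference was -0.89. Over the 24 libraries the log2 values of both genes had a Pearson r of 0.66, over deviations from group means -0.23 and over the 20 libraries other than wt Ly6Clo 0.19. These libraries share groups, series and depth, and the r over 24 libraries rests on the wt Ly6Clo group. Runx2os2 and Runx2os3, other antisense genes of the locus, reached at most 20 and 3 in any library.

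**Figure D2:**
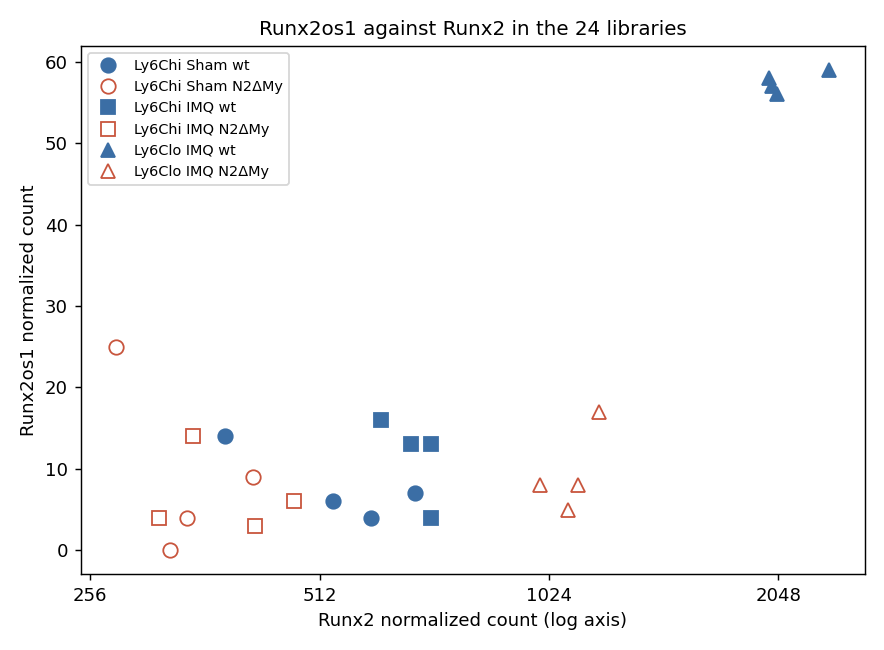
Runx2os1 (vertical axis, normalized count) against Runx2 (horizontal axis, normalized count, log axis) in the 24 libraries, with filled symbols for wt and open ones for N2ΔMy. The 4 wt Ly6Clo libraries lie alone at the upper right, and the N2ΔMy Ly6Clo libraries lie at 996 to 1190 for Runx2 and 5 to 17 for Runx2os1.

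Runx3 went the other way between subsets. In wt cells after IMQ it was 628, 784, 865 and 797 in Ly6Chi and 337, 359, 383 and 259 in Ly6Clo libraries, without overlap (log2 fold change -1.20 ± 0.15 SE, -1.01 in series 1 and -1.40 in series 2). In N2ΔMy cells it was 680, 721, 755 and 642 in Ly6Chi and 369, 420, 493 and 334 in Ly6Clo libraries, also without overlap (-0.80 ± 0.14 SE, -0.83 in series 1 and -0.78 in series 2). Runx3 was past the call rule in both. Between genotypes it overlapped in each setting, with a log2 fold change of 0.27 ± 0.17 SE in Ly6Clo cells (0.18 and 0.36 by series). Ly6Chi cells after Sham, at 947 to 1110 in wt and 881 to 948 in N2ΔMy libraries, lay above those after IMQ in both genotypes, by 0.43 and 0.40 on the log2 scale (SE 0.11 and 0.08), which is below the fold threshold.

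Runx1 was the most even of the 3 Runx genes. Its group means lay between 1783 in N2ΔMy Ly6Chi cells after IMQ and 2455 in wt Ly6Chi cells after Sham, and only the latter group, at 2344 to 2538, did not overlap with the next in order, wt Ly6Chi cells after IMQ at 2016 to 2199. N2ΔMy means were 84.5% of wt in Ly6Chi cells after IMQ, 85.2% after Sham and 94.6% in Ly6Clo cells after IMQ. The log2 fold changes were -0.25 ± 0.10 SE, -0.24 ± 0.09 SE and -0.08 ± 0.10 SE. Between subsets Runx1 differed by -0.05 ± 0.08 SE in wt and 0.11 ± 0.12 SE in N2ΔMy cells. In series 1 and 2 the genotype difference was -0.13 and -0.37 in Ly6Chi cells after IMQ, -0.25 and -0.22 after Sham and, with a change of sign, -0.20 and 0.03 in Ly6Clo cells. The N2ΔMy subset difference also changed sign, from -0.13 in series 1 to 0.36 in series 2.

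Cbfb was higher in Ly6Clo than in Ly6Chi cells after IMQ, by 0.44 ± 0.09 SE in wt and 0.35 ± 0.11 SE in N2ΔMy cells on the log2 scale, below the fold threshold. By series these were 0.40 and 0.48 in wt and 0.48 and 0.21 in N2ΔMy cells. Its libraries held 1414, 1645, 1512 and 1583 in wt Ly6Clo cells against 1056 to 1261 in wt Ly6Chi cells, so these groups did not overlap. In N2ΔMy Ly6Clo cells it was 1496, 1830, 1360 and 1479, and the genotypes differed by less than 0.01 on the log2 scale (SE 0.11), with 0.12 in series 1 and -0.13 in series 2. In Sham Ly6Chi cells the N2ΔMy value was higher by 0.20 ± 0.08 SE (0.23 and 0.18 by series).

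**Figure D3:**
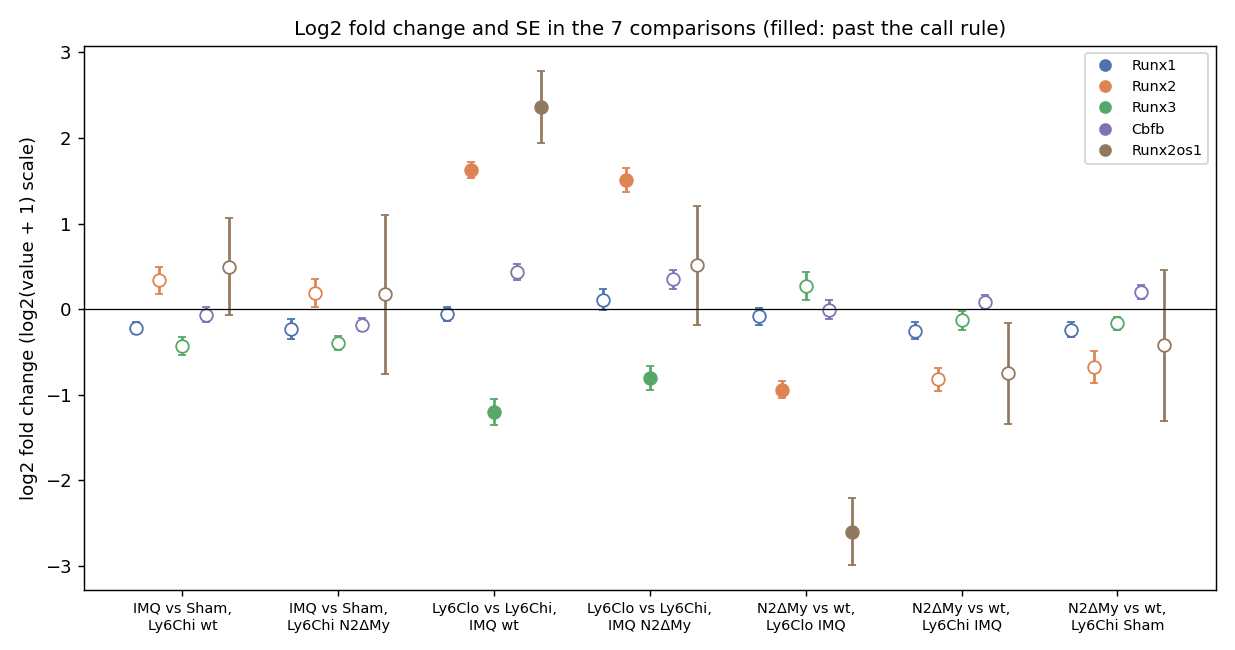
Log2 fold change (vertical axis, log2(value + 1) scale) with its SE for the 5 genes in the 7 comparisons (horizontal axis). Filled points are past the call rule. Runx2 is past it in both subset comparisons and in Ly6Clo cells between genotypes, where it is -0.94, and Runx1 and Cbfb in none.

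To compare the 3 Runx genes with each other, values were divided by the exonic length in kilobases. This was the length annotated per gene, 11827 bases for Runx1, 8837 for Runx2 and 5003 for Runx3. Which isoforms the cells expressed was not determined, so the ranking between genes depends on these lengths. Per kilobase, wt Ly6Chi cells after Sham held mainly Runx1 and Runx3, with 43.7% ± 2.72 and 43.3% ± 1.96 (SD, n = 4) of the summed level, and Runx2 with 13% ± 2.52. In wt Ly6Clo cells after IMQ the Runx2 share was 49.9% ± 1.37 and the Runx3 share 14.0% ± 2.22. In N2ΔMy Ly6Clo cells they were 33.8% ± 2.17 and 22.0% ± 3.27, and Runx1 had the largest share with 44.2% ± 2.21. In wt Ly6Chi cells after IMQ the Runx2 share was 18.8% ± 0.665 and in N2ΔMy ones 13.1% ± 1.5. The summed level per kilobase was 477 ± 31.1 in wt and 368 ± 26.6 in N2ΔMy Ly6Clo cells. Cbfb per kilobase was 0.932 of that sum in wt and 1.21 in N2ΔMy Ly6Clo cells.

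**Figure D4:**
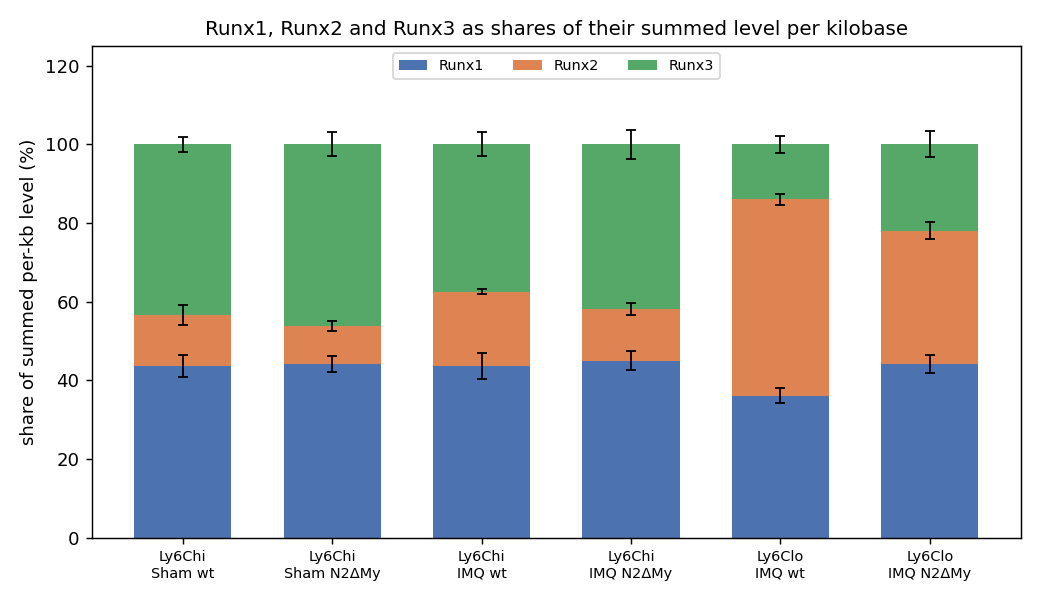
Share of the summed level per kilobase (vertical axis, percent) held by Runx1, Runx2 and Runx3 in the 6 groups (horizontal axis), as stacked means with the SD of 4 libraries at the top of each segment. The Runx2 segment is largest in wt Ly6Clo cells, at 49.9%, and smaller in N2ΔMy Ly6Clo cells, at 33.8%.

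The order of group means for Runx2 was wt Ly6Clo, N2ΔMy Ly6Clo, wt Ly6Chi IMQ, wt Ly6Chi Sham, N2ΔMy Ly6Chi IMQ and N2ΔMy Ly6Chi Sham. Neighbours in that order overlapped from the third place on. Genes most like Runx2 by Pearson r of log2 values over the 24 libraries were Dgkh (0.97), a diacylglycerol kinase, Fam49a (0.97) and Itgal (0.97), the alpha chain of the integrin LFA-1. Dgkh was 2972, 2900, 3542 and 2875 in wt and 1639, 1866, 1452 and 2156 in N2ΔMy Ly6Clo libraries. Over deviations from group means the 3 genes had r of 0.54, 0.42 and 0.44. Most like Runx3 were Mnda (0.97), Slfn5 (0.97) and Sulf2 (0.97), and most like Cbfb were H2-D1 (0.92), Pafah1b1 (0.89) and Galnt1 (0.89). Most like Runx1 were AC157561.9 (0.84), Zufsp (0.84) and Ttll3 (0.82), and most like Runx2os1 were RP23-4F1.1 (0.84), RP24-342G5.2 (0.80) and RP24-502J3.1 (0.80).

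Genes around the family were examined from lists of cofactors, partners and targets, chosen with earlier results of these data known. Runx proteins recruit corepressors, among them those of the Groucho (Tle) and ETO families. Of 12 corepressors listed, 10 were tested, and in wt cells after IMQ 2 were higher and 1 lower in Ly6Clo than in Ly6Chi cells, namely Tle1 (log2 fold change 0.86), Cbfa2t3 (0.78) and Tle3 (-0.92), with median 0.20 over the list against -0.01 over all genes tested. Thus 3 of 10 passed where 24.6% of all genes did. In N2ΔMy cells the same 3 passed in the same directions, where 17.4% of all genes did. Of the co-activators, Carm1, an arginine methyltransferase, passed in both genotypes with 0.93 ± 0.11 SE and 0.63 ± 0.11 SE. Between genotypes in Ly6Clo cells none of the tested corepressors and co-activators passed in limma, where 4.78% of all genes passed, and an unadjusted p under 0.05 was found for 0 of 10 and 1 of 6, against 2192 of all 11230 genes. The members with the highest mean were Cbfa2t3, with means of 6753 in wt and 5553 in N2ΔMy cells, and Ep300, an acetyltransferase, with 7590 and 7566.

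Among the DNA-binding partners, transcription factors that meet Runx proteins at enhancers, 9 of 11 were tested. In wt cells 5 were higher in Ly6Clo than in Ly6Chi cells and 1 lower, where 24.6% of all genes passed, and in N2ΔMy cells 4 were higher and none lower, where 17.4% did. Ets1, which binds next to Runx proteins, was 287 to 740 in wt Ly6Clo and 3 to 14 in wt Ly6Chi libraries after IMQ (log2 fold change 6.14 ± 0.43 SE). It was at most 39 in any Ly6Chi library, so it was tested only through the subset where it is high. Its subset difference is therefore a description. Ets2 (2.95) and Smad3 (1.23) were also higher, and Cebpa, a myeloid regulator, was lower (-1.43). Between genotypes in Ly6Clo cells Ets1 was 740, 644, 287 and 458 in wt and 378, 255, 91 and 253 in N2ΔMy libraries. It did not pass (log2 fold change -1.20, adjusted p = 0.13 in limma), but did with the replicate block (adjusted p = 0.0003). Cebpa did not pass either (0.91, adjusted p = 0.056, with the block 0.009, limma). Spi1, the partner with the highest mean, was 12079 ± 1440 (SD, n = 4) in wt and 9483 ± 1080 (SD, n = 4) in N2ΔMy Ly6Clo cells.

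Of the lists examined, known blood-cell targets of Runx factors held the largest genotype differences in Ly6Clo cells, in Mmp9 and Ccr2. Of 12 listed, 8 were tested, and between genotypes in Ly6Clo cells 2 were higher and 2 lower in N2ΔMy cells, where 4.78% of all genes passed, with a list median of 0.27 against 0.00 over all genes tested. Ccr2, the chemokine receptor of Ly6Chi cells, was 241 to 991 in wt and 4393 to 6281 in N2ΔMy libraries (log2 fold change 3.44 ± 0.34 SE, adjusted p = 0.00032 in limma), and Mmp9 was also higher (3.76). Bcl2, a survival factor, was 2695 to 3247 in wt and 1142 to 1465 in N2ΔMy libraries (-1.20 ± 0.11 SE, adjusted p = 0.00016 in limma), and Itgal was lower (-0.73 ± 0.13 SE). Whether these differences are tied to Runx2 was not tested. Ccr2 is also among the 5 Ly6Chi monocyte markers, which summed to 524 to 1892 in wt and 7117 to 10009 in N2ΔMy Ly6Clo libraries. Itgal is among the 3 genes most like Runx2. In these bulk values a change of cell types and a change of RNA per cell cannot be told apart.

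In Ly6Chi cells after IMQ no listed target passed between genotypes in limma, where 0.0267% of all genes did, although 3 of 8 had an unadjusted p under 0.05, against 679 of all 11230 genes. Once the replicate block was added, Bcl2 passed (log2 fold change -1.51, adjusted p = 0.0033). In wt cells Ly6Clo libraries were lower than Ly6Chi libraries in Ccr2 (-4.67) and Spp1 (-3.53) and higher in Bcl2 (3.57) and Itgal (1.68), with Csf1r, the receptor by which the cells were sorted as CD115, also past the call rule, which 24.6% of all genes met. In N2ΔMy cells 4 targets were higher and 2 lower, where 17.4% of all genes passed, and Bcl2 was among the higher (3.89 ± 0.31 SE). Mmp9, also among the higher, was tested only through the N2ΔMy Ly6Clo group. The 8 listed bone targets of Runx2, such as Bglap, Ibsp and Sp7, lay at 13 or less in every library, and none was tested.

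Of the Notch list 4 of 7 genes were tested, and 3, Notch2 itself among them, were lower in N2ΔMy than in wt Ly6Clo cells, where 4.78% of all genes passed. Hes1, a direct Notch target, was 592, 672, 744 and 788 in wt and 252, 368, 296 and 324 in N2ΔMy libraries (log2 fold change -1.18 ± 0.15 SE, adjusted p = 0.0011 in limma). Nrarp, another Notch target, was 128 to 151 in wt and 28 to 80 in N2ΔMy libraries (-1.60 ± 0.31 SE, adjusted p = 0.012 in limma). In Ly6Chi cells after IMQ Hes1 differed by -1.37 ± 0.31 SE without passing (adjusted p = 0.44, with the replicate block 0.019, limma). With Runx2, Hes1 had an r of 0.89 over the 24 libraries and of -0.70 over deviations from group means. Over the 6 group means it was, after RP23-385F8.3 and Tspyl3, the gene most like Runx2 of all those tested, a choice from many genes on few points.

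Around the 5 loci 113 other genes examined lie within 500000 bases, of which 29 were tested. Between genotypes in Ly6Clo cells Clic4, a chloride channel protein gene beside Runx3, was the only one of the 29 past the call rule, which 4.78% of all genes met, with 571 to 736 in wt and 960 to 1189 in N2ΔMy libraries (log2 fold change 0.81 ± 0.12 SE, adjusted p = 0.0024 in limma). Between subsets 4 neighbours were higher in wt Ly6Clo cells and 5 in N2ΔMy ones, and those in wt were Enpp4 (1.66), Rcan1 (1.44), Tppp3 (1.1) and Tmem57 (0.60). These 4 and 5 of 29 were no larger a share than the 24.6% and 17.4% of all genes tested. After IMQ against Sham 2 of 29 were higher in wt cells, Tppp3 (1.08) and Atp6v0d1 (0.66), and 1 in N2ΔMy cells, Tppp3 (1.02), where 9.49% and 8.7% of all genes passed. Of genes that overlap Runx2, Supt3 was the only one tested besides Runx2os1. It was 78 to 128 in wt and 73 to 126 in N2ΔMy Ly6Clo libraries (log2 fold change -0.12 ± 0.24 SE, adjusted p = 0.86 in limma). The other overlapping genes, n-R5s27, Runx2os2, Runx2os3, RP23-465H23.2, RP23-167O21.2, Gm22063 and Gm24629, were not tested, with at most 28 in any library.

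Markers of the subsets moved with genotype beside these results. The 5 Ly6Chi monocyte markers, Ly6c2 and Ccr2 among them, summed to 524 to 1892 in wt and 7117 to 10009 in N2ΔMy Ly6Clo libraries, and to 55152 to 67847 in wt Ly6Chi libraries after IMQ. The 7 Ly6Clo monocyte markers summed to 86255 to 103470 in wt and 49562 to 61222 in N2ΔMy Ly6Clo libraries. Ace, Spn and Nr4a1 made up most of that sum, and 2 of the 7 had the higher mean in N2ΔMy cells, Cd36 with 911 against 2910 and Cx3cr1 with 2654 against 3786. In Ly6Chi cells these 7 summed to 18608 to 20348 in wt and 13603 to 16657 in N2ΔMy libraries after Sham, without overlap, and to 15375 to 26782 and 10371 to 19384 after IMQ, with overlap. The 5 Ly6Chi markers there summed to 69878 to 81724 in N2ΔMy libraries after IMQ, and to 56674 to 66744 in wt and 62284 to 77497 in N2ΔMy libraries after Sham. In Ly6Clo libraries the 6 macrophage markers summed to 5537 to 7368 in wt and 12364 to 16901 in N2ΔMy cells, and in Ly6Chi libraries after IMQ to 3839 to 5236 and 5769 to 8240, and after Sham to 5497 to 6145 and 6732 to 7321. Of the 7 markers of plasmacytoid dendritic cells, which express Runx2, Tcf4 made up most of the sum, which was 1128 to 1547 in wt and 1192 to 1464 in N2ΔMy Ly6Clo libraries, and Siglech had means of 15 and 29.5 and Spib of 20.5 and 76. The 5 markers of conventional dendritic cells summed to 83 to 522 in wt and 206 to 1626 in N2ΔMy Ly6Clo libraries, with medians of 130 and 471.5. In wt Ly6Chi libraries these 5 summed to 823 to 1474 after Sham and 270 to 529 after IMQ. The N2ΔMy Ly6Chi libraries held 958 to 1686 after Sham and 296 to 410 after IMQ. Per the methods the sort took lineage-negative, MHC-II-negative cells, with B220 among the lineage markers. B220 is borne by plasmacytoid and MHC-II by conventional dendritic cells. The part of these cells in the Runx2 and Runx2os1 differences, and in that of Runx3 between Sham and IMQ, was not tested.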

How the data were processed

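RNA from blood monocytes sorted as Lin-CD11b+GFP+CD115+MHC-II- cells was sequenced as 75-base single reads from a stranded total RNA kit. Per the labels and methods, the authors trimmed reads with Trim Galore 0.4.4, aligned them to GRCm38.p6 with STAR 2.5.3a, counted them per GENCODE gene and normalized them with DESeq2. The deposited table holds scores, that is, normalized counts without decimals. Count models do not suit it, so limma 3.58.1 in R 4.3.3 was used on log2(value + 1), with lmFit, eBayes with a trend and Benjamini-Hochberg adjustment, on the 8 libraries compared or the 16 of an interaction. Tests covered the 11230 genes that reached 50 in 1 library or more, and calls needed an adjusted p not above 0.05 and a log2 fold change not below 0.6 in size. Errors are SD over 4 libraries or the SE of the fit. The methods call n numbers biological replicates in general, but the labels do not tie libraries to separate animals, so p-values measure the spread between these libraries. Columns of the authors' own comparisons were not used.

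Depth was inferred from the rounding and spans 9521379 to 19759572 reads. Floors and counts of reads cover counting error only. Groups came from the labels. Libraries of the same replicate number deviated together from their group means (r from 0.16 to 0.62 in every pair of all comparisons). Libraries of different number within a series were not compared, so pairing by number cannot be told apart from a shared series. The main fits took no pairing, and a replicate block was run as an alternative. Other alternatives were the library series as a covariate or alone, 2 other scalings, 2 filters, 2 pseudocounts, all 24 libraries in 1 fit, no trend and leaving out each library. Named genes were the 5 members, Notch2, Hes1, genes overlapping a member, at most 4 called genes of largest change per list and comparison, the highest-mean gene of a list without calls, and the 3 genes most like each member. Some genes are not reported here and were left out of the list and neighbour counts, though not of the fits. The members, lists and tests were chosen with earlier results of these data known. The pipeline was tested on simulated data.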

Additional observations from a re-analysis of the deposited data

Results flagged for a closer look

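In 36 sample groups, for the 5 genes and Notch2, 2 had a library far from the other 3, when chance flags about 1 in 20. Runx2 in wt Ly6Clo cells had replicate 1 at 2386 against 1989 to 2040 (gap over range 0.872). Cbfb in N2ΔMy Ly6Chi cells after Sham had replicate 3 at 1229 against 1401 to 1429 (0.86).

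The genotype difference was larger in Ly6Clo than in Ly6Chi cells after IMQ for Ccr2, by 2.94 ± 0.39 SE on the log2 scale (adjusted p = 0.00064 in limma).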

How the results depend on the processing

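Over the alternatives run, 871 of 900 recomputed log2 differences of the 5 genes had the reported sign, and so had all 140 of the 7 called values. Other scalings shifted no library's median by more than 0.082 on the log2 scale. With the replicate block, members past the call rule in Ly6Chi cells after IMQ between genotypes went from 0 to 1 (Runx2), as they did with the series as a covariate (1) or all 24 libraries in 1 fit (1). No other member call changed with the block. All genes called went from 537 to 939 in Ly6Clo cells between genotypes, from 3 to 54 in Ly6Chi cells after IMQ and from 116 to 271 in the genotype by subset interaction. They fell to 215 without the filter and 180 in series 2 alone in Ly6Clo cells. Leaving out single libraries gave 358 to 560 there, 0 to 4 in Ly6Chi cells after IMQ (0 without wt replicate 1, 2 or 3 or N2ΔMy replicate 2, 3 or 4, and 1 without wt replicate 4) and 75 to 173 in the interaction (75 without wt Ly6Chi replicate 2). Runx2os1 lost its call in Ly6Clo cells within series 2 alone, which left 1 member called. No member call changed on leaving out any library.

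Runx2 log2 fold changes in series 1 and 2 alone were 0.056 and 0.62 for IMQ in wt, 1.22 and 1.80 for subset in N2ΔMy, -1.08 and -0.80 for genotype in Ly6Clo and -0.57 and -1.07 for genotype in Ly6Chi cells after IMQ. The cause was not tested. At a pseudocount of 10 the log2 ratio of Runx2os1 to Runx2 differed by -0.89 between the Ly6Clo genotypes, against -1.66. It lay between -1.92 and -1.43 on leaving out single libraries. For likeness, r over deviations from group means was 0.64 for AC157561.9 (0.99 over group means), 0.54 for Dgkh, 0.65 for Mnda and 0.65 for H2-D1.

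Of 37 tested list genes, those called for IMQ in wt cells went from 1 to 4 with the block or the series covariate, 3 with total scaling, no trend or series 1 alone, and 2 with no filter, all 24 libraries or series 2 alone. Without wt Sham replicate 2, 3 or 4 or wt IMQ replicate 1 or 3 they were 2 (range 1 to 2). For IMQ in N2ΔMy cells they went from 4 to 2 with the filter of 50 in 4 libraries. Without N2ΔMy Sham replicate 2 or 3 they were 2, and without N2ΔMy IMQ Ly6Chi replicate 4 they were 1 (range 1 to 4). In Ly6Clo cells between genotypes they went from 7 to 4 without the filter, 11 in series 1 alone and 3 in series 2 alone. With the block or the series covariate 4 list genes were higher and 6 lower there, against 2 and 5 in the main fit. In Ly6Chi cells after IMQ they went from 1, Notch2, to 3 with the block, 3 with the series covariate, 2 with all 24 libraries, and 0 with no trend or in series 1 or 2 alone. There they were 0 without wt replicate 1, 2 or 3 or N2ΔMy replicate 2, 3 or 4 (range 0 to 1). In Ly6Chi cells after Sham the only call, Notch2, went to 0 with total or upper-quartile scaling, no filter, no trend or either series alone, and on leaving out any of the 8 libraries (range 0 to 0). Neighbours called for IMQ in wt cells went from 2 to 1 without the filter, without wt Sham replicate 1 or without wt IMQ replicate 4 (range 1 to 2). For subset in wt cells they went from 4 to 2 in series 2 alone and, with 2 of them lower, to 6 in series 1 alone. In the genotype by subset interaction they went from 0 to 1 with the block, total scaling or without wt Ly6Clo replicate 2 (range 0 to 1). Runx2os1 differences among Ly6Chi groups rest on at most 21 inferred reads per library.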
